A study of Danio rerio with 10 samples.

Results

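The genes described here carry or mark the response to cortisol in the brain of adult zebrafish: the receptors *nr3c1* and *nr3c2*, the target genes *fkbp5*, *klf9* and *tsc22d3*, and the enzymes *hsd20b2* and *hsd11b2*, which inactivate cortisol. They are 7 of the 32266 genes in the count table, taken by gene identifier (*fkbp5*, *klf9* and *hsd20b2*) or by gene name, and the rule found all 7. All 7 passed the filter on low counts in every comparison. They were selected on values of these same libraries: *fkbp5* and *klf9* were among the genes with the highest fold changes under MPH. For *fkbp5*, *klf9*, *hsd20b2* and *tsc22d3* the drug comparisons are therefore given as a description, with no test, whereas *nr3c1*, *nr3c2* and *hsd11b2* are read from the test in every comparison.

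RNA was sequenced from whole brains of 6-month-old fish of the Tübingen strain, with 2 brains pooled in each library. Wild type (WT) with vehicle had 2 libraries, and homozygous *ppp2r2c* m/m fish with vehicle had 2 libraries. *ppp2r2c* m/m fish fed MPH (methylphenidate, named Ritalin in the sample titles) at 1.08 mg/kg had 3 libraries, and *ppp2r2c* m/m fish fed valproate at 300 mg/kg had 3 libraries. Both drugs were given for 3 days in soaked food, and every group except WT carries the same frameshift mutation of *ppp2r2c*, a regulatory subunit gene of protein phosphatase 2A. No WT fish received a drug, so the drugs were compared with vehicle within the mutant only. The study's reagent list gives MPH as a solution of ritalinic acid hydrochloride. Replicates are described as biological by the submitters, and p values measure the spread between these libraries.

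Cortisol is the main glucocorticoid of teleosts. It enters cells, binds the glucocorticoid receptor encoded by *nr3c1* or the mineralocorticoid receptor encoded by *nr3c2*, and the bound receptor moves to the nucleus and switches target genes on or off. In the cytoplasm the receptor is held ready by heat shock proteins and co-chaperones, among them the protein encoded by *fkbp5*, which lowers the receptor's affinity for hormone and is itself a target, so that it closes a short feedback loop. The enzyme encoded by *hsd11b2* oxidises cortisol to cortisone, and that encoded by *hsd20b2* reduces cortisone further to an excreted product. In fish, cortisol is made outside the brain, in the interrenal cells of the head kidney.

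The 10 libraries held from 19224942 to 25851076 counts each. Levels are given as counts per 1000000 (CPM), with library sizes scaled by the TMM method over all 10 libraries. The targeted gene, *ppp2r2c* (ENSDARG00000056797), lay at 50.3 and 54.6 CPM in WT, 46.3 and 46.7 CPM in *ppp2r2c* m/m with vehicle and 39.2 to 70.6 CPM in the treated libraries, and these counts do not read the edited bases. The brain label was checked against markers: 14 of 14 rows of the neuron list had counts, with summed levels of 6297 to 8037 CPM, whereas the 6 rows of the list for interrenal, steroid-making cells summed to 1.85 to 6.90 CPM and *mc2r*, the receptor for the pituitary hormone that drives them, had 0 counts in all 10 libraries. Libraries of one treated group differed strongly in some clock genes. A PER1 row (ENSDARG00000012499), one of the period genes of the circadian clock, stood at 198, 279 and 197 CPM in MPH libraries 1 and 2 and valproate library 1, against 40.4, 52.2 and 47.3 CPM in MPH library 3 and valproate libraries 2 and 3. The vehicle libraries lay between 69.2 and 80.5 CPM. The other PER1 row (ENSDARG00000056885) was at 19.6, 36.6 and 23.1 CPM in the first set and 6.63, 4.93 and 6.23 CPM in the second, against 1.27 to 3.64 CPM with vehicle. Both PER1 rows are also on the list of other glucocorticoid targets given below. The clock gene *nr1d4b* was arranged the opposite way, at 4.82, 8.91 and 6.30 CPM in the first set and 40.4, 50.3 and 53.2 CPM in the second. With vehicle *nr1d4b* lay between 2.20 and 2.95 CPM. Not every clock row divided the treated libraries this way, and NR1D1, given below, did not. The labels give no time of sampling. MPH library 3 and valproate library 1 thus stood apart from their groups, and the main values that rest on them are given with and without them.

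**Figure D1:**
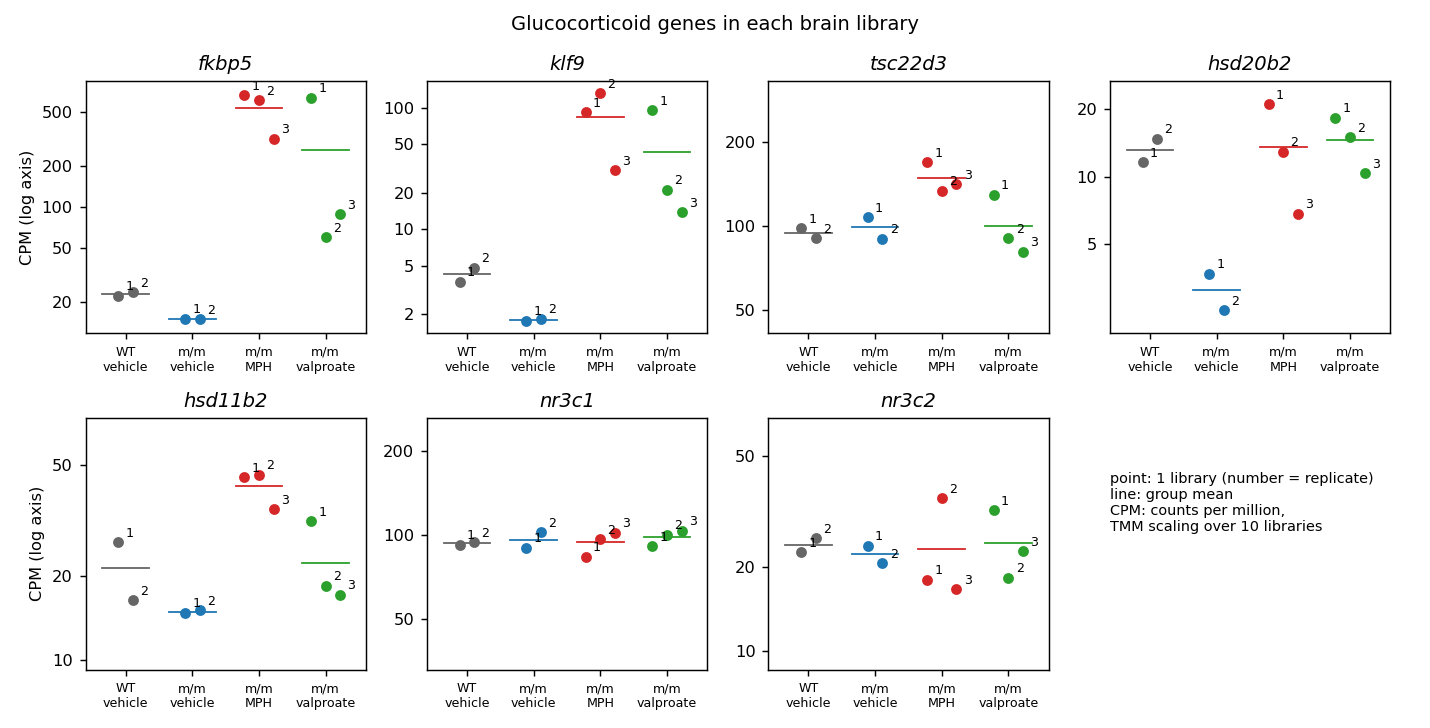
Level of each gene in each of the 10 libraries, as CPM on a log axis; points are libraries with their replicate number and lines are group means. *fkbp5* and *klf9* lay above both vehicle groups in all 6 treated libraries, *hsd20b2* was lowest in the 2 *ppp2r2c* m/m vehicle libraries, and *nr3c1* stayed between 83.3 and 103 CPM.

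The glucocorticoid receptor gene *nr3c1* (ENSDARG00000025032) was the steadiest of the 7. Its level was 92.1 and 94.0 CPM in WT, 89.8 and 102 CPM in *ppp2r2c* m/m with vehicle, 83.3, 96.4 and 101 CPM with MPH and 90.7, 99.7 and 103 CPM with valproate. The groups overlapped in every comparison, and the highest library exceeded the lowest by 1.24 times. No difference passed the test: the log2 fold change was 0.05 between genotypes (95% interval −0.25 to 0.35, adjusted p = 0.926), −0.03 with MPH (−0.42 to 0.36, adjusted p = 0.966), 0.02 with valproate (−0.26 to 0.29, adjusted p = 0.953) and −0.06 for MPH against valproate (−0.36 to 0.25, adjusted p = 0.997), all by the quasi-likelihood method of edgeR with Benjamini-Hochberg adjustment over all genes. These intervals leave room for differences of up to about these bounds in either direction.

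The mineralocorticoid receptor gene *nr3c2* (ENSDARG00000102082) varied more between libraries of one group than between groups. It stood at 22.7 and 25.4 CPM in WT and at 23.9 and 20.7 CPM in *ppp2r2c* m/m with vehicle. With MPH it was 18.0, 35.4 and 16.7 CPM and with valproate 32.0, 18.4 and 22.8 CPM, so that MPH library 2 and valproate library 1 were high and all groups overlapped. In those same 2 libraries the 10 rows of the pituitary marker list summed to 65.7 and 64.4 CPM, against 1.37 to 8.08 CPM in the other 8, and the part of pituitary tissue in the *nr3c2* level was not tested. The log2 fold changes were −0.10 (95% interval −0.49 to 0.29) between genotypes, 0.07 (−0.69 to 0.83) with MPH, 0.12 (−0.44 to 0.68) with valproate and −0.06 (−0.79 to 0.67) between the drugs, with adjusted p between 0.844 and 0.998 in edgeR's test. Without MPH library 2 the MPH value was −0.36, and without valproate library 1 the valproate value was −0.13.

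*fkbp5* (ENSDARG00000028396), the receptor co-chaperone, had 489 and 535 counts in WT and 344 and 329 counts in *ppp2r2c* m/m with vehicle. With MPH it had 14992, 13784 and 7393 counts, and with valproate 13077, 1211 and 1910 counts. In CPM this was 22.9 ± 0.944 (SD, n = 2) in WT, 15.0 ± 0.108 (SD, n = 2) with vehicle in *ppp2r2c* m/m, 529 ± 186 (SD, n = 3) with MPH and 261 ± 324 (SD, n = 3) with valproate. Every treated library lay above all 4 vehicle libraries. In bulk tissue, more cells of a type and more RNA per cell cannot be told apart. The libraries with MPH stood 44.1, 40.4 and 21.02 times above the mean of the *ppp2r2c* m/m vehicle libraries, whereas valproate library 1, at 42.2 times, was level with the highest MPH libraries and valproate libraries 2 and 3 stood at 3.97 and 5.86 times. The fitted log2 fold change was 5.13 (standard error 0.37) with MPH and 4.11 (standard error 1.09) with valproate.

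*klf9* (ENSDARG00000068194), which encodes a zinc finger transcription factor induced by glucocorticoids, was arranged in nearly the same way. It had 81 and 109 counts in WT, 40 and 40 counts in *ppp2r2c* m/m with vehicle, 2074, 2976 and 711 counts with MPH and 1974, 429 and 300 counts with valproate. The corresponding levels were 4.25 ± 0.792 (SD, n = 2), 1.79 ± 0.0435 (SD, n = 2), 84.4 ± 50.8 (SD, n = 3) and 43.6 ± 45.3 CPM (SD, n = 3). Again all 6 treated libraries lay above the 4 vehicle libraries, and MPH libraries 1 and 2 and valproate library 1 formed the top, at 51.3, 73.4 and 53.5 times the *ppp2r2c* m/m vehicle mean. MPH library 3 was at 17.0 times and valproate libraries 2 and 3 at 11.8 and 7.74 times. The fitted log2 fold change was 5.56 (standard error 0.65) with MPH and 4.60 (standard error 0.95) with valproate. Among 19907 genes tested, *klf9* and *fkbp5* held places 21 and 27 from the highest log2 fold change with MPH.

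The spread of *fkbp5* and *klf9* within the drug groups followed the split in PER1 level. Valproate library 1 exceeded the lowest valproate library by 10.6 times for *fkbp5* and 6.92 times for *klf9*, and within MPH the highest library exceeded library 3 by 2.10 and 4.32 times. Without valproate library 1 the log2 fold change with valproate was 2.28 for *fkbp5* and 3.27 for *klf9*, and without MPH library 3 that with MPH was 5.39 and 5.95. Between MPH and valproate the groups overlapped for both genes, with log2 fold changes of 1.02 (standard error 0.78) for *fkbp5* and 0.96 (standard error 0.72) for *klf9*. Leaving out MPH library 3 and valproate library 1 together, a choice made after seeing the data, brought these to 3.10 and 2.67, but it leaves MPH libraries with high PER1 against valproate libraries with low PER1, so that drug and PER1 state cannot be told apart there. The part of the PER1 or clock state in the level of these genes was not tested. Within the set with low PER1, MPH library 3 had 316 CPM of *fkbp5* against 59.7 and 88.1 CPM in valproate libraries 2 and 3, and within the set with high PER1 the MPH libraries had 663 and 608 CPM against 634 CPM in valproate library 1.

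**Figure D2:**
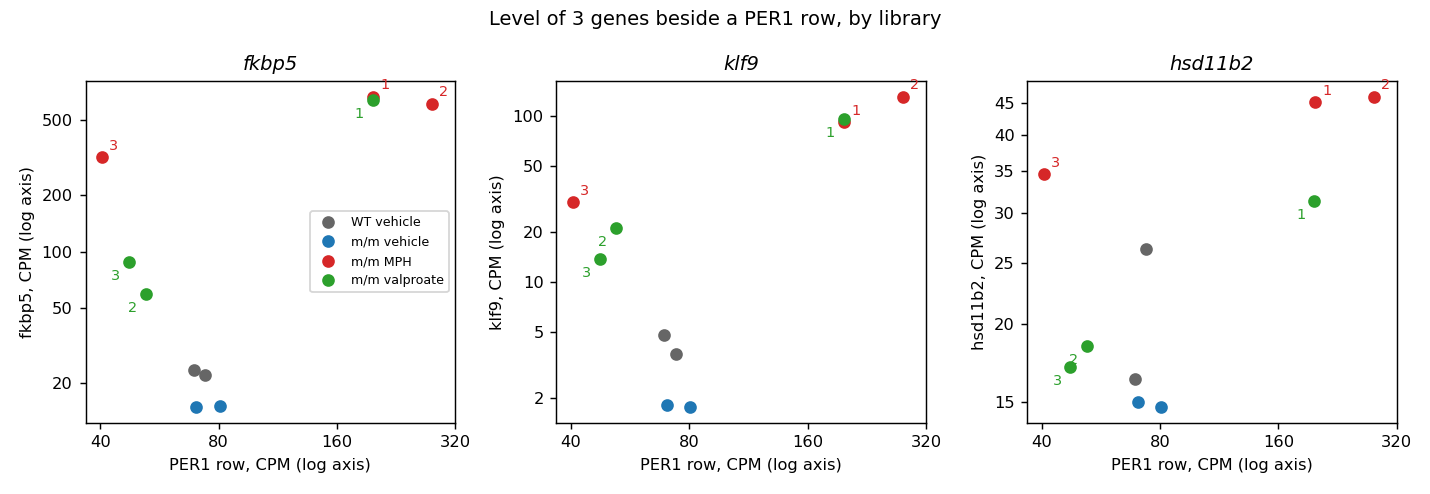
Level of *fkbp5*, *klf9* and *hsd11b2* against that of a PER1 row (ENSDARG00000012499) in each library, both as CPM on log axes. Numbers mark the treated replicates, and the PER1 row is also on the list of other glucocorticoid targets. MPH libraries 1 and 2 and valproate library 1 lie at the right with PER1 at 197 to 279 CPM, MPH library 3 and valproate libraries 2 and 3 at the left with 40.4 to 52.2 CPM, and in both sets *fkbp5* and *klf9* lie above the vehicle libraries.

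*tsc22d3* (ENSDARG00000075666), also known as glucocorticoid-induced leucine zipper and an anti-inflammatory mediator in mammals, moved far less. Its level was 97.8 and 90.4 CPM in WT, 107 and 89.9 CPM in *ppp2r2c* m/m with vehicle, 169, 134 and 141 CPM with MPH and 129, 90.1 and 80.6 CPM with valproate. The 3 MPH libraries lay above all other libraries, and only valproate library 1 of the valproate group lay above the vehicle range. The fitted log2 fold change was 0.58 (standard error 0.18) with MPH and 0.01 (standard error 0.21) with valproate, and −0.23 with valproate when library 1 was left out. Its relatives TSC22D1 and *tsc22d2*, the 2 rows found for the family, did not pass the test in any comparison (smallest adjusted p = 0.611 in edgeR's test).

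Of the 2 enzymes, *hsd20b2* (ENSDARG00000031336) was low only in *ppp2r2c* m/m with vehicle. It had 255 and 334 counts in WT, 84 and 56 counts in *ppp2r2c* m/m with vehicle, 476, 293 and 160 counts with MPH and 377, 303 and 224 counts with valproate. In CPM this was 13.2 ± 2.21 (SD, n = 2), 3.12 ± 0.809 (SD, n = 2), 13.6 ± 7.13 (SD, n = 3) and 14.5 ± 3.99 (SD, n = 3). The treated libraries, from 6.84 to 21.05 CPM, thus lay on both sides of the WT libraries and above both *ppp2r2c* m/m vehicle libraries. With the drugs the log2 fold change was 2.12 (standard error 0.48) for MPH and 2.20 (standard error 0.32) for valproate, and −0.09 (standard error 0.39) for MPH against valproate. Without MPH library 3 the MPH value was 2.43 and that between the drugs 0.23, and without valproate library 1 the valproate value was 2.00 and that between the drugs 0.11.

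Between the genotypes *hsd20b2* fell by 2.07 on the log2 scale in *ppp2r2c* m/m (standard error 0.28, 95% interval −2.72 to −1.41), which passed the test narrowly (edgeR, adjusted p = 0.0473). It also passed in DESeq2 (adjusted p = 9.1e-06). In edgeR it passed with DESeq2 size factors (0.0494), no filter (0.00087), at least 10 counts in every library (0.0279) and the replicate number as a block (0.0257), but not in every setting. Without vehicle library 1 or 2 of *ppp2r2c* m/m the adjusted p was 0.0574 or 0.171, and in one fit over all 10 libraries it was 0.305, with log2 fold changes between −2.37 and −1.82 in all 4 fits that left out one library. The same *ppp2r2c* m/m vehicle libraries serve in both drug comparisons, on which the gene was selected, so the genotype result is not independent of that choice.

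*hsd11b2* (ENSDARG00000001975) stood highest with MPH. Its level was 26.3 and 16.3 CPM in WT, 14.7 and 15.0 CPM in *ppp2r2c* m/m with vehicle, 45.1, 46.0 and 34.6 CPM with MPH and 31.4, 18.4 and 17.1 CPM with valproate. The 3 MPH libraries lay above all others, valproate library 1 came next, and the lowest WT library exceeded the *ppp2r2c* m/m vehicle libraries only slightly. With MPH the gene rose by a log2 fold change of 1.49 (standard error 0.21, 95% interval 1.02 to 1.96, adjusted p = 0.0392 in edgeR's test), from 14.9 ± 0.203 (SD, n = 2) to 41.9 ± 6.34 CPM (SD, n = 3). As *hsd11b2* was chosen with earlier results of these data known, this call is not that of an unselected gene. The size held when single libraries were left out, at 1.42 to 1.61, but the call did not: the adjusted p was 0.507 and 0.448 without vehicle library 1 or 2, 0.135 and 0.109 without MPH library 1 or 2, 0.00427 without MPH library 3, and 0.0501 in one fit over all 10 libraries.

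In the other comparisons *hsd11b2* did not pass the test. The log2 fold change was 0.57 with valproate (95% interval −0.07 to 1.21, adjusted p = 0.343), −0.51 between the genotypes (−1.08 to 0.05, adjusted p = 0.534) and 0.92 for MPH against valproate (0.35 to 1.49, adjusted p = 0.997), all from edgeR's test. Without valproate library 1 the valproate value was 0.24. The WT libraries differed, and the genotype value was −0.13 (adjusted p = 0.872) without WT library 1 and −0.82 (adjusted p = 0.0387) without WT library 2, each resting on a single WT library.

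Counting over the 7 genes, every *ppp2r2c* m/m vehicle library lay below every WT library for 4 (*fkbp5*, *klf9*, *hsd20b2* and *hsd11b2*), where 22% of all genes tested did so. For *fkbp5* the log2 fold change between genotypes was −0.60 (standard error 0.17, adjusted p = 0.307) and for *klf9* it was −1.24 (standard error 0.37, adjusted p = 0.331), while *tsc22d3* was at 0.08 (standard error 0.14, adjusted p = 0.891) in edgeR's test. Of the 7, *hsd20b2* passed, where 0.193% of all genes did; as its choice drew on the same vehicle libraries, nothing is read from that share. With MPH every library lay above the vehicle libraries for 5 of the 7 (all but the receptors), against 15.7% of all genes, and with valproate for 4 of the 7 (*fkbp5*, *klf9*, *hsd20b2* and *hsd11b2*), against 19.3%; for the genes selected on drug values nothing is read from these shares. Of the 3 genes read from the test, *hsd11b2* passed with MPH, against 0.216% of all genes, and none passed with valproate, against 0.131%. These 3 were also chosen with earlier results of these data known, so nothing is read from these shares either. For MPH against valproate edgeR called no gene at all (0% of 19387), 787 had an unadjusted p under 0.05 and DESeq2 called 40. The genotype, MPH and valproate comparisons all use the same 2 *ppp2r2c* m/m vehicle libraries, so a low value there moves all 3.

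**Figure D3:**
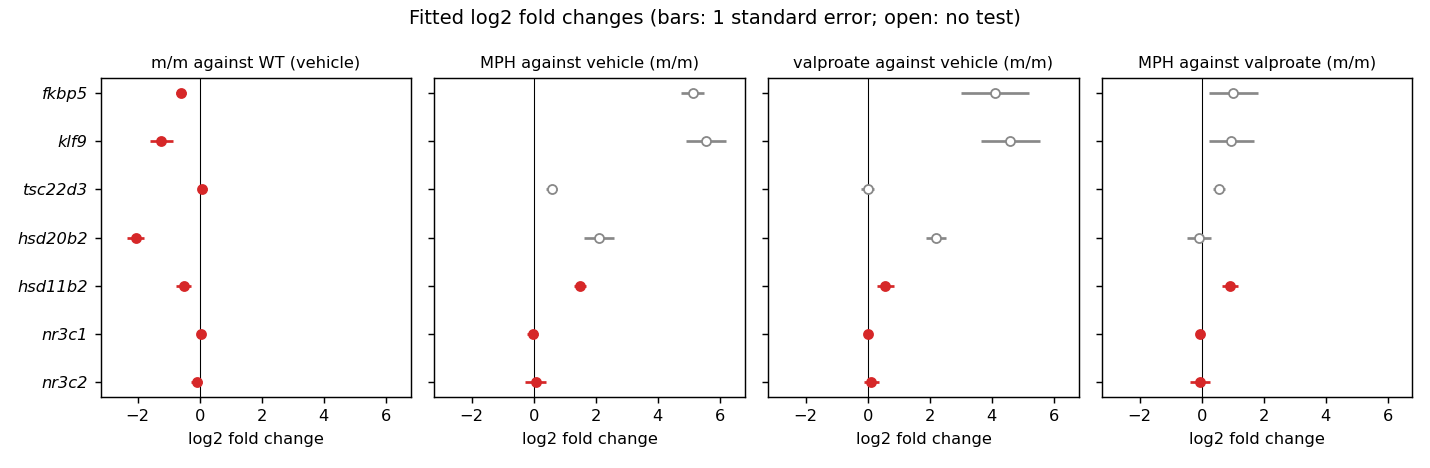
Fitted log2 fold change of the 7 genes in the 4 comparisons, with bars of 1 standard error; filled points were read from the test and open points are descriptions of genes selected on these values. The drug panels show *fkbp5* and *klf9* between 4.11 and 5.56, *hsd20b2* at 2.12 and 2.20, and both receptors within 0.12 of 0.

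Across the 10 libraries *fkbp5* and *klf9* had a Pearson correlation of log2 CPM of 0.97 (Spearman 0.93), the highest of the 21 pairs. *hsd11b2* followed *fkbp5* at 0.87, *tsc22d3* at 0.87 and *klf9* at 0.84, and *hsd20b2* reached 0.71 with *klf9* and 0.60 with *fkbp5*. *nr3c1* was at −0.24 with *fkbp5* and −0.21 with *klf9*. These values describe 10 libraries that fall into treated and untreated sets, and every pair shares its libraries and their depth. As *fkbp5* and *klf9* were selected on drug values of these same libraries, nothing is read from the place of their pair.

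The genes most like *fkbp5* among 17635 others with a mean of at least 1 CPM were *pik3r3a* (a regulatory subunit of phosphoinositide kinase), *klf9* itself, *nt5dc2*, si:ch211-247j9.1 and *mmadhca*, each with r = 0.97 over 10 libraries. *pik3r3a* was between 10.4 and 11.5 CPM in the 4 vehicle libraries, at 47.3, 39.2 and 28.6 CPM with MPH and at 41.5, 12.7 and 14.4 CPM with valproate, the order of *fkbp5* with valproate libraries 2 and 3 close to the vehicle range. The gene most like *klf9* was si:dkey-201c13.2 (r = 0.99), which was at 0.483 to 1.41 CPM in the vehicle libraries, at 25.8, 33.1 and 10.5 CPM with MPH and at 25.3, 7.89 and 4.70 CPM with valproate. Its clone name matches that of an older name of *klf9* (si:dkey-201c13.3) in RefSeq, and whether the rows share reads was not tested. It was followed by ENSDARG00000022415 (no name in the table used) and GPR63 (each r = 0.98), and *mmadhca* (r = 0.97).

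For *hsd20b2* the most alike rows were PHKG1, the catalytic subunit gene of phosphorylase kinase (r = 0.96), GALNT18 (0.93), STK25 (0.92), PRC1 (0.92) and *mipepb* (0.91). PHKG1 had the same low vehicle pair, with 46.0 and 42.8 CPM in WT, 24.2 and 20.8 CPM in *ppp2r2c* m/m with vehicle, 61.8, 50.7 and 26.4 CPM with MPH and 57.9, 43.6 and 37.1 CPM with valproate. For *tsc22d3* they were SET, which encodes an inhibitor of protein phosphatase 2A and a histone chaperone (r = 0.96), NDEL1 (0.95), CDPF1 (0.95), *smim15* (0.94) and TMEM167A (0.94). SET differed little in size, from 239 CPM in valproate library 3 to 301 CPM in MPH library 1. Likeness over 10 libraries depended on the measure: by Spearman's correlation 1 of the 5 was shared for *fkbp5*, *klf9* and *tsc22d3* and 0 for *hsd20b2*.

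Other genes known as glucocorticoid targets in vertebrates gave 38 rows, of which 32 passed the filter. None passed the test in edgeR in any of the 4 comparisons. At an unadjusted p under 0.05, 12 of the 32 were higher with MPH and 0 lower, against 6.73% and 4.97% of all genes, and 10 were higher with valproate and 0 lower, against 9.08% and 7.82%. DESeq2 called 7 higher and 0 lower with MPH, where it called 328 higher and 168 lower of all 19907 genes tested in edgeR. With valproate DESeq2 called 6 higher and 0 lower, against 615 and 453 of 19850 genes. Between the genotypes 1 was higher and 7 were lower at that threshold, against 4.8% and 5.22% of all genes. There DESeq2 called 1 higher and 2 lower, against 136 and 142 of 19695 genes. For MPH against valproate 1 was higher and 1 lower, against 437 and 350 of 19387 genes, with 0 called by DESeq2. The median log2 fold change of the 32 was 0.48 with MPH, 0.43 with valproate, −0.21 between the genotypes and 0.19 for MPH against valproate, where the median over all genes lay within 0.01 of 0 each time. The list was written with results of these data known.

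The rows named from that list were chosen after their values were seen. PDK4 (ENSDARG00000054848), a kinase that inhibits pyruvate dehydrogenase and is raised in fasting, was at 8.96 and 7.80 CPM in WT, 1.58 and 2.68 CPM in *ppp2r2c* m/m with vehicle, 18.8, 11.7 and 10.1 CPM with MPH and 6.98, 19.97 and 9.22 CPM with valproate, so it shared the low vehicle pair of *hsd20b2*. Its log2 fold change was 2.66 with MPH (adjusted p = 0.0552), 2.48 with valproate (adjusted p = 0.0933) and −1.97 between the genotypes (adjusted p = 0.101) in edgeR's test. CEBPD (ENSDARG00000087303), a transcription factor of the acute phase response, was at 14.4 and 14.7 CPM in WT, 11.6 and 5.37 CPM with vehicle in *ppp2r2c* m/m, 70.3, 50.7 and 28.8 CPM with MPH and 51.0, 48.0 and 21.6 CPM with valproate. All 6 treated libraries were above the 4 vehicle libraries.

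The next rows showed the same separation. IGFBP1 (ENSDARG00000099351), which encodes a binding protein that restrains insulin-like growth factors, lay between 5.78 and 7.24 CPM in the 4 vehicle libraries, at 25.2, 19.6 and 16.5 CPM with MPH and at 13.1, 16.9 and 15.2 CPM with valproate. The inhibitor of NF-kappaB *nfkbiab* (ENSDARG00000007693) lay between 46.9 and 56.5 CPM in the vehicle libraries, at 220 CPM, 138 CPM and 120 CPM with MPH and at 168, 69.6 and 68.7 CPM with valproate. Against these, *sgk1* (ENSDARG00000025522), a kinase gene often used as a marker of receptor activity, did not follow *fkbp5*: it was at 148 and 116 CPM in WT, 221 and 196 CPM in *ppp2r2c* m/m with vehicle, 194, 183 and 127 CPM with MPH and 244, 128 and 170 CPM with valproate. Between the genotypes its log2 fold change was 0.67 (adjusted p = 0.237 in edgeR's test), and it did not pass with either drug. The paralog *nfkbiaa* of *nfkbiab* was low and did not show the separation either. It was at 2.28 and 2.38 CPM in WT and 2.07 and 2.09 CPM in *ppp2r2c* m/m with vehicle. With MPH it was at 1.59, 1.76 and 1.45 CPM and with valproate at 2.42, 5.28 and 2.08 CPM.

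The call for this list depended on the libraries that stood apart. Without MPH library 3, 731 genes passed with MPH in edgeR's test, 8 of them on this list: both PER1 rows, PDK4, CEBPD, *nfkbiab*, IGFBP1, CRY2 and DDIT4. Without valproate library 1, 712 genes passed with valproate, 6 of them on this list. These were PDK4, IGFBP1, ZBTB16, *zbtb16b* and *foxo3b*, which were higher, and the PER1 row ENSDARG00000012499, which was lower. Both PER1 rows and CRY2 are also clock genes. As the list was written with results of these data known, nothing is read from these counts beside those over all genes. Between the genotypes, a fit without 1 WT library rests on the single WT library left, so nothing is read from its calls on this list.

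**Figure D4:**
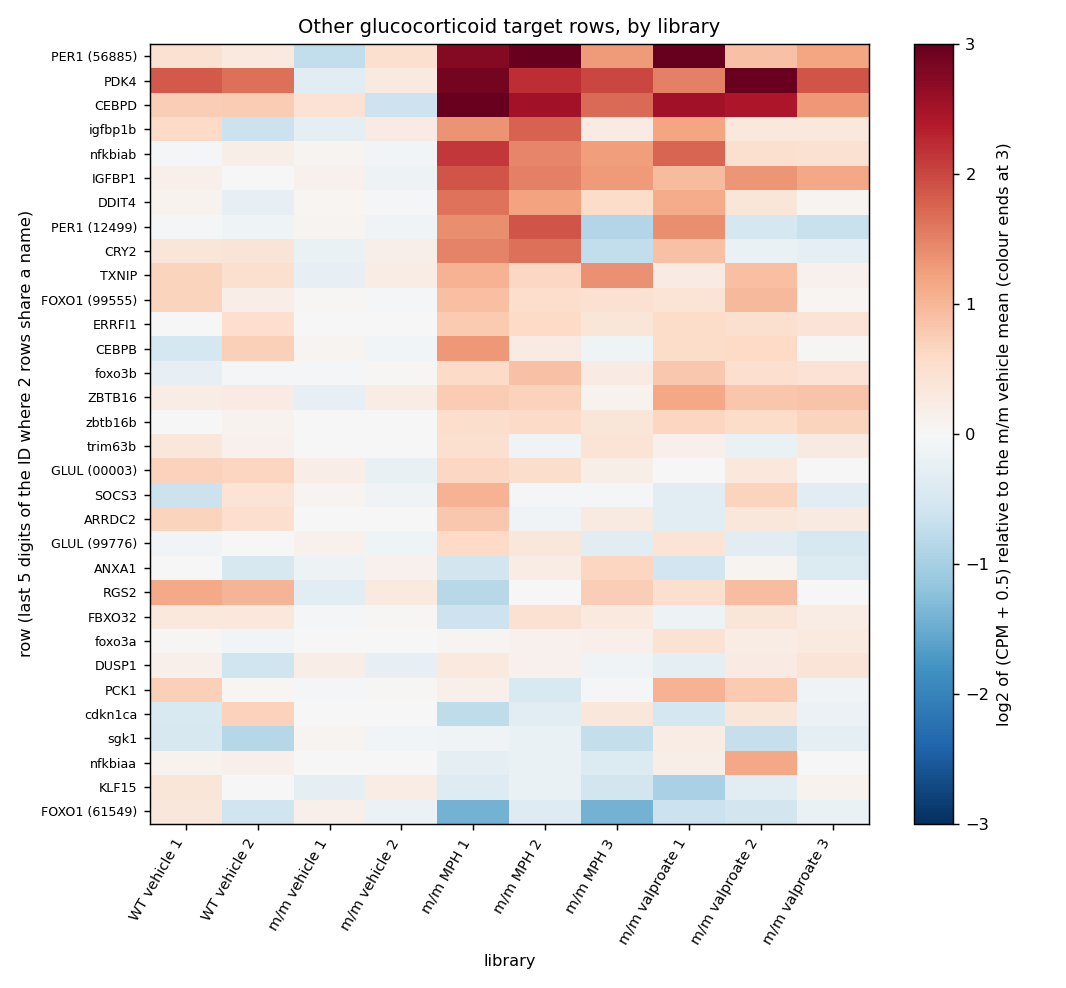
Log2 of CPM plus 0.5 relative to the mean of the 2 *ppp2r2c* m/m vehicle libraries for the 32 other target rows (rows, ordered by log2 fold change with MPH) in the 10 libraries (columns); red is higher, blue is lower, and the colour ends at 3. The top rows are red in most treated libraries, the PER1 row ENSDARG00000012499 is red in MPH libraries 1 and 2 and valproate library 1 and blue in the other treated libraries, and PDK4 is also red in WT.

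Of the chaperones and co-chaperones that hold the receptor, 1 row of 21 tested passed with MPH and 0 of 21 with valproate, against 0.216% and 0.131% of all genes. At an unadjusted p under 0.05, 10 were lower and 0 higher with MPH, against 4.97% and 6.73% of all genes, and 9 were lower and 0 higher with valproate, against 7.82% and 9.08%. DESeq2 called 5 lower with MPH and 8 lower with valproate, where it called 168 and 453 of all genes lower. Between the genotypes 0 of 22 passed, and 1 was higher and 2 were lower at that threshold, against 4.8% and 5.22% of all genes. DESeq2 called 1 lower there, against 142 of all genes. The median log2 fold change was −0.46 with MPH, −0.50 with valproate and −0.05 between the genotypes. The row that passed the test was HSPA4 (ENSDARG00000004754), a heat shock protein family member, which fell by 1.27 on the log2 scale with MPH (standard error 0.15, adjusted p = 0.0168 in edgeR's test). It was at 88.6 and 108 CPM in WT, 102 and 99.4 CPM in *ppp2r2c* m/m with vehicle, 42.4, 43.6 and 39.8 CPM with MPH and 61.0, 44.8 and 49.4 CPM with valproate, so that no treated library reached the vehicle range in either PER1 set. The call was lost without vehicle library 1 (adjusted p = 0.276), vehicle library 2 (0.259), MPH library 1 (0.0679) or MPH library 2 (0.0763). FKBP4, a co-chaperone related to *fkbp5* but favouring hormone binding, was chosen after its values were seen: it lay between 210 and 233 CPM in the 4 vehicle libraries and between 125 and 141 CPM in the 6 treated ones, and did not pass the test with either drug. HSP90AB1, the main receptor chaperone of this list by name, was between 1316 and 3182 CPM with no such split.

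Among 14 coregulator rows 0 passed the test; at an unadjusted p under 0.05, 0 were higher and 1 lower with MPH, 4 higher and 1 lower with valproate, and 1 higher and 0 lower between the genotypes, and DESeq2 called 0, 2 and 0. The other members of the FKBP family gave 0 calls of 17 rows tested with MPH and 0 of 16 with valproate, with 2 higher and 3 lower and with 1 higher and 5 lower at that threshold and with 1 and 2 called by DESeq2. In the KLF family KLF11 (ENSDARG00000030844), a relative of *klf9*, rose between the genotypes, from 13.7 and 12.9 CPM in WT to 36.3 and 30.6 CPM in *ppp2r2c* m/m with vehicle (log2 fold change 1.34, standard error 0.17, adjusted p = 0.0367 in edgeR's test), and the treated libraries lay at 27.4 to 54.8 CPM. That call was lost without *ppp2r2c* m/m vehicle library 1 (adjusted p = 0.135) or 2 (0.0874). A second KLF11 row (ENSDARG00000013794), named after its values were seen, did not rise between the genotypes. It was at 6.69 and 8.24 CPM in WT and 8.83 and 6.37 CPM in *ppp2r2c* m/m with vehicle. Its log2 fold change was 0.03 there, 1.36 with MPH and 1.57 with valproate (adjusted p = 0.981, 0.144 and 0.179 in edgeR's test). Of the family's 19 rows tested with each drug, both KLF11 rows included, 4 were higher and 1 lower with MPH at an unadjusted p under 0.05. With valproate 2 were higher and 1 lower. Of these rows edgeR called 0 and DESeq2 1 and 3. Over all genes the shares at that threshold were 6.73% higher and 4.97% lower with MPH, 9.08% and 7.82% with valproate, and 4.8% and 5.22% between the genotypes. Of all genes DESeq2 called 328 higher and 168 lower with MPH, 615 and 453 with valproate, and 136 and 142 between the genotypes.

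No gene that makes, releases or clears cortisol passed the test beyond *hsd20b2* and *hsd11b2*. Of 25 rows for synthesis and inactivation 20 were tested with MPH and 19 in each other comparison, and 0 passed in any; at an unadjusted p under 0.05, 1 was higher and 1 lower with MPH, 2 higher and 0 lower with valproate, and 2 higher and 0 lower between the genotypes, with 0 called by DESeq2 in each. Over all genes these shares were 6.73% and 4.97%, 9.08% and 7.82%, and 4.8% and 5.22%. Of the stress axis list, the row named CRH, for the hypothalamic hormone that starts the axis, was at 47.2 and 42.8 CPM in WT, 44.9 and 40.8 CPM in *ppp2r2c* m/m with vehicle, 32.4, 29.9 and 50.7 CPM with MPH and 22.5, 53.3 and 45.3 CPM with valproate. It was thus lower in the 3 libraries with high PER1 than in the other 7 and was named after its values were seen. CRH did not pass the test in any comparison. The peptide rows *oxt*, *avp* and *crha* of the list, also named after their values were seen, were likewise lowest in valproate library 1. Within MPH they went the other way and were highest in library 1. There *oxt* was at 257, 178 and 114 CPM, *avp* at 31.7, 15.3 and 9.02 CPM and *crha* at 4.29, 1.85 and 1.03 CPM. The stress axis list held 19 rows, of which 17 were tested with MPH, 14 with valproate, 16 between the genotypes and 14 for MPH against valproate. It gave 0 calls in all 4 comparisons, and 0 by DESeq2. At an unadjusted p under 0.05, 2 were higher and 0 lower with MPH, and 1 higher and 0 lower with valproate. Between the genotypes 1 passed that threshold in each direction. The 2 rows higher with MPH were POMC and *pomcb*, named after their values were seen. POMC is also on the pituitary marker list.

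Other measures moved beside these genes. Of 31 clock rows, 14 were higher with MPH and 16 with valproate at an unadjusted p under 0.05, against 6.73% and 9.08% of all genes, and 0 were lower. With MPH 3 passed, all higher (NR1D1, *nr1d2a* and *nfil3-5*), against 0.216% of all genes, and with valproate 2, both higher (NR1D1 and *dbpb*), against 0.131%, with adjusted p between 0.00294 and 0.0489 in edgeR's test; without 1 library these ranged up to 0.674 (*nfil3-5* without vehicle library 1). NR1D1 (ENSDARG00000033160), a clock repressor, was at 66.0, 70.4 and 50.1 CPM with MPH and 53.2, 76.5 and 76.5 CPM with valproate, against 4.59 to 7.41 CPM in the vehicle libraries. The 7 rows of the blood marker list summed to 267 and 485 CPM in WT, 503 and 515 CPM in *ppp2r2c* m/m with vehicle, 198, 169 and 445 CPM with MPH and 176, 191 and 194 CPM with valproate. With valproate 3 of these rows passed the test, all lower, against 0.131% of all genes (*hbaa1*, SLC4A1 and *alas2*, by 2.02, 1.87 and 1.65 on the log2 scale). Over the fits that left out one library their log2 fold changes were −2.13 to −1.87, −2.05 to −1.68 and −1.83 to −1.45. The calls did not hold in every such fit. The radial glia list summed to 9354, 8795 and 6453 CPM with MPH and 9341, 6015 and 6096 CPM with valproate. Among treated libraries these sums were higher in the same 3 as PER1. In the vehicle libraries it summed to 7224 and 6741 CPM in WT and 9496 and 7979 CPM in *ppp2r2c* m/m. Between the genotypes 4 of its 8 rows tested were higher and 1 lower at an unadjusted p under 0.05, against 4.8% and 5.22% of all genes. Their median log2 fold change was 0.46. There edgeR called 0, and DESeq2 called 3 higher and 1 lower, against 136 and 142 of all genes. Both GLUL rows of this list are also on the list of other glucocorticoid targets. The GLUL row ENSDARG00000099776 alone stood at 3540, 2945 and 1867 CPM with MPH and 3101, 1835 and 1672 CPM with valproate. The other GLUL row (ENSDARG00000100003) was at 541, 506 and 393 CPM with MPH and 351, 433 and 353 CPM with valproate. With valproate it was thus lowest in library 1. It was at 569 and 544 CPM in WT and 401 and 298 CPM in *ppp2r2c* m/m with vehicle. Its log2 fold change between the genotypes was −0.66 (adjusted p = 0.261 in edgeR's test and 0.0045 in DESeq2). The row FABP7 (ENSDARG00000034650) of that list fell by 1.605 on the log2 scale with valproate. It stood at 6.99, 5.73 and 21.1 CPM with MPH and 14.9, 11.4 and 12.0 CPM with valproate. Within MPH it was thus lower in the libraries with high PER1, opposite to the sum of the list. The 8 rows of the list tested with valproate had a median log2 fold change of −0.24. At an unadjusted p under 0.05, 0 were higher and 2 lower, against 9.08% and 7.82% of all genes. Of the 7 oligodendrocyte rows 0 passed the test. At an unadjusted p under 0.05, 4 were lower with MPH and 5 with valproate, against 4.97% and 7.82% of all genes. The median log2 fold changes of the 7 were −0.44 and −0.45. DESeq2 called 2 lower with each drug, against 168 of all genes with MPH and 453 with valproate. The retina and lens list stood at 57.6 CPM in WT library 2 and 99.8 CPM in valproate library 2, against 1.82 to 9.51 CPM elsewhere. The muscle list summed to 8.60 and 29.8 CPM in WT and 8.88 and 6.32 CPM in *ppp2r2c* m/m with vehicle. It summed to 26.9, 17.8 and 20.6 CPM with MPH and 25.6, 11.4 and 24.8 CPM with valproate. MPH library 2 and valproate library 1 also had the high pituitary sums given beside *nr3c2*. The part of blood, radial glia, oligodendrocytes, pituitary, muscle, retina or clock state in the levels of the 7 genes was not tested.

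In RefSeq's annotation of the GRCz12tu assembly, which differs from the release used for counting, *fkbp5* overlaps *srsf3a* and the span of *hsd11b2* overlaps that of *zdhhc1*, and the strand used for counting is not stated. The row named srsf3a held 3 counts over all 10 libraries. The row named ZDHHC1 was between 18.3 and 33.3 CPM, with 25.8, 31.6 and 23.0 CPM with MPH and 33.3, 25.7 and 28.1 CPM with valproate, an order unlike that of *hsd11b2*. Reads that fall in such overlaps cannot be assigned with certainty. The other 5 genes overlapped no annotated gene there.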

How the data were processed

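The authors sequenced paired ends of brain RNA, filtered and trimmed the reads, aligned them to zebrafish release zv10 with STAR 2.6.1d and deposited unnormalized whole counts per gene from its GeneCounts mode; their own comparisons used DESeq2. The annotation and counting strand are not given in the sources used here.

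On the deposited counts, edgeR 4.0.16 under R 4.3.3 compared only the libraries of the groups concerned, by quasi-likelihood after TMM scaling. Low rows were removed by filterByExpr (a count of 10, a total of 15), and p was adjusted by Benjamini-Hochberg over all genes (threshold 0.05). Standard errors and 95% intervals were derived from the F statistic and are approximate. In simulated counts with 200 genes changed 4-fold, 158 to 166 were recovered, with 12 to 22 false calls. Genes were drawn independently there, without the split between libraries seen in PER1, so this recovery need not hold for the real libraries. Alternatives were DESeq2 1.42.0, its size factors in edgeR, no filter, a minimum of 10 counts in each library, a joint fit of all 10 libraries, the replicate number as a block, and each library left out. Leaving out MPH library 3 and valproate library 1 together was chosen after seeing the data. Named genes are the 7, up to 4 called genes per list and direction with the largest change, the 5 genes most correlated with each of *fkbp5*, *klf9*, *hsd20b2* and *tsc22d3*, and those said to be named after their values were seen; 1 of the genes most like *klf9* is not reported here. The members and lists were chosen with earlier results of these data known.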

Additional observations from a re-analysis of the deposited data

How the results depend on the processing

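Of 175 tested log2 fold changes of the 7 genes recomputed under alternatives, 149 kept their direction and side of the threshold, 8 lost a call, 2 gained one and 16 changed sign, none of them a called one. Of 140 given without a test, 5 changed sign and 6 moved by more than their spread. Over the fits that left out one library, those that changed sign ranged, between the genotypes, from −0.067 to 0.21 for *tsc22d3*, −0.035 to 0.13 for *nr3c1* and −0.22 to 0.0062 for *nr3c2*; with MPH, from −0.13 to 0.057 for *nr3c1* and −0.36 to 0.25 for *nr3c2*; with valproate, from −0.23 to 0.15 for *tsc22d3*, −0.068 to 0.11 for *nr3c1* and −0.13 to 0.29 for *nr3c2*; and for MPH against valproate, from −0.55 to 0.23 for *hsd20b2*, −0.12 to 0.015 for *nr3c1* and −0.48 to 0.18 for *nr3c2*. Without MPH library 3 and valproate library 1, *hsd20b2* was at 0.43 and *nr3c2* at 0.37 there. The cause was not tested.

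The number of called genes depended on the tool and filter. Between the genotypes it was 38 in the main analysis, 279 with DESeq2, 272 with no filter, 4 with all libraries in one fit and 31 to 494 with one library left out (494 without WT library 1, 483 without WT library 2). With MPH it was 43, against 496, 219 and 143 under the same settings and 1 to 731 (731 without MPH library 3). With valproate it was 26, against 1071 with DESeq2, 267 with no filter, 78 with at least 10 counts in every library and 0 to 712 (712 without valproate library 1). For MPH against valproate it was 0, against 40 with DESeq2, 1 with no filter, 0 to 1 with one library left out and 73 without MPH library 3 and valproate library 1. Of the other glucocorticoid targets, 0 were called in the main analysis. Between the genotypes 3 were called with DESeq2, 1 with no filter and 0 to 2 with one library left out. With MPH 7 were called with DESeq2, 7 with no filter, 2 with at least 10 counts in every library, 3 with all libraries in one fit and 0 to 8 with one left out. With valproate 6 were called with DESeq2, 4 with no filter and 0 to 6 with one left out. For MPH against valproate 2 were called without MPH library 3 and valproate library 1, namely the PER1 row ENSDARG00000012499 and CRY2; both are clock genes, and that pair was left out for its PER1 level, so nothing is read from these calls.

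Whether replicate numbers pair the samples was not settled. Same-numbered libraries had correlations of deviations of 0.07 between the genotypes, 0.07 and 0.04 for MPH and vehicle, 0.08 and −0.04 for valproate and vehicle and 0.20, −0.24 and 0.16 for the drugs. The deviations of 2 vehicle libraries from their mean mirror each other, so the values that involve vehicle cannot decide it. With the replicate number as a block, 120, 2689, 135 and 2 genes were called in the 4 comparisons, 17 other targets with MPH and 2 with valproate, and *nr3c1* with valproate was at −0.017. Only the drug groups have a replicate 3, so in the comparisons with vehicle the block takes up MPH library 3 or valproate library 3. Each group had only 2 or 3 libraries. The lowest counts of *fkbp5* and *klf9* were 329 and 40, both in *ppp2r2c* m/m with vehicle, and the effect of depth on their values was not tested.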
